A study of Homo sapiens with 3 samples.

Results

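The receptor tyrosine kinases AXL, TYRO3, MERTK, MET, MST1R, EPHA2, FGFR1, FGFR2 and FGFR3, together with GAS6, the ligand of the first 3, were examined for ETS1 binding sites in SCC25 cells. These 10 genes were taken by name from the 20163 protein-coding genes of GENCODE 44 placed on hg19 (GRCh37). A peak was counted for a gene when its midpoint fell in the gene body or within 100 kb of either end. By this rule the 10 genes held 80 of the 26970 ETS1 peaks, of which 26961 are nuclear and 9 are mitochondrial.

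SCC25, a line established from a squamous carcinoma of the tongue, is the only cell line in the series. The cells were untreated. ETS1 ChIP-Seq was performed in 3 samples, 2 immunoprecipitated with the C20 antibody from Santa Cruz and 1 with the 501A antibody from Bethyl, both polyclonal antibodies against ETS1. The deposited list is the consensus of the 3 samples and gives the chromosome, start and end of each peak and nothing else. It has no peak height, read count or depth per sample, and a difference between antibodies or the spread between samples could not be measured. Positions of peaks also leave the identity of the cells and the expression of the 10 genes unchecked. All intervals below are 95% Wilson intervals and cover counting error only.

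ETS1 is the founding member of the ETS family of transcription factors, which recognise a short core with the bases GGAA. AXL, TYRO3 and MERTK form the TAM family, receptors that bind GAS6 and clear apoptotic cells, and AXL is widely studied in carcinoma for its part in invasion and drug resistance. MET is the receptor of hepatocyte growth factor (HGF), MST1R (also called RON) is its closest relative and binds macrophage stimulating protein (MST1), EPHA2 is bound by ephrin-A ligands on neighbouring cells, and FGFR1, FGFR2 and FGFR3 are receptors of the fibroblast growth factors.

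The sequences printed here are stretches of 200 bases under ETS1 peaks, chosen because each holds an ETS core. Where the middle of the peak has none, or an annotated UTR lies there, the window is farther out, and that of FGFR2 is in the outer part of its peak. The capitals mark AGGAAA or AGGAAG, and also CCGGAA, wherever they stand on either strand. A core on the opposite strand appears as its reverse complement, which begins with TT or CT and ends with CCT or CGG. All are GRCh37 sequence, written 5′ to 3′ in the direction in which the gene is transcribed, and none overlaps an annotated UTR. AGGAAA or AGGAAG is found somewhere in 90.05% of all nuclear peaks, so the cores describe these windows and do not set them apart. The AXL window is chr19:41725394-41725593 on the plus strand, in the intron after exon 1. The MERTK window, chr2:112655833-112656032 on the plus strand, lies at -351 to -152 bp from the canonical transcription start site (TSS), the start of the transcript that GENCODE tags as canonical. The MET window, chr7:116312050-116312249 on the plus strand, ends at the base before the canonical TSS, and the FGFR2 window, chr10:123357973-123358172 on the minus strand, lies at -214 to -15 bp. The EPHA2 window is chr1:16480622-16480821 on the minus strand, in the intron after exon 1.
AXL: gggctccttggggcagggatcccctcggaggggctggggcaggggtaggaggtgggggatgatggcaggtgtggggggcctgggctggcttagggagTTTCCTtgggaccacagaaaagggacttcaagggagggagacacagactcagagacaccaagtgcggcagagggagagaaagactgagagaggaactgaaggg
MERTK: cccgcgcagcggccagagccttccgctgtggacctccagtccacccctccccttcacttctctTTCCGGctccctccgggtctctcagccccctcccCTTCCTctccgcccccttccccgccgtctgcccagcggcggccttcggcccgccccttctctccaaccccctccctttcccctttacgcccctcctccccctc
MET: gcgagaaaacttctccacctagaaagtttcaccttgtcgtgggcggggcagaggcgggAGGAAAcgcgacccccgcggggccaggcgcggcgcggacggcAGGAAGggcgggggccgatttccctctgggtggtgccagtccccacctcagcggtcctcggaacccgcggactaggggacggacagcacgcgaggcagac
FGFR2: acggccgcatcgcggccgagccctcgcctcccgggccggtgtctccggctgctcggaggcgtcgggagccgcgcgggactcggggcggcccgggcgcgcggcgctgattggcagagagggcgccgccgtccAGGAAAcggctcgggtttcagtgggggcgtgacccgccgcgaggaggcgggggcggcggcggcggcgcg
EPHA2: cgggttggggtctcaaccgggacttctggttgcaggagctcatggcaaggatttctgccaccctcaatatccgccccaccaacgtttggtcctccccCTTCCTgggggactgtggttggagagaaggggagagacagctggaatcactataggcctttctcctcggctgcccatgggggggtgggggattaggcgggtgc

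MET carried one core of each kind, AGGAAA and AGGAAG, in the 200 bases before its TSS, both on the strand of the gene. MERTK had CCGGAA and AGGAAG on the opposite strand. Another pair of windows is shown for peaks inside the genes, away from the canonical TSS, that stand near the top of the deposited list, at position 378 of 26970 for AXL and 351 for MERTK. What the order of the list stands for is not stated in the sources used here. The AXL window, chr19:41732290-41732489 on the plus strand, is in the intron after exon 4, with both AGGAAG and AGGAAA and a CCGGAA on the other strand. The MERTK window, chr2:112732666-112732865 on the plus strand, is in the intron after exon 6 and holds AGGAAG at a pair of places. The EPHA2 window and both of these were picked after the peaks had been seen.
AXL intron 4: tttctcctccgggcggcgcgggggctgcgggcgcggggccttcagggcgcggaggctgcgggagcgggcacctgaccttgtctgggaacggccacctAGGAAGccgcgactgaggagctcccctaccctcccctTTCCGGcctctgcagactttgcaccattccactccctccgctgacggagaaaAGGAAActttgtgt
MERTK intron 6: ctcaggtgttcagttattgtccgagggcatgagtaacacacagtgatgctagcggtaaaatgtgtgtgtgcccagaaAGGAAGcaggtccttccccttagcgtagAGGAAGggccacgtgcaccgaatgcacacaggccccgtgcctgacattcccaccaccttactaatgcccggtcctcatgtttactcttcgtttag

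All 10 genes had at least 1 peak in the gene body or within 100 kb, as did 87.5% of all protein-coding genes. The count ran from 3 peaks at FGFR2 to 21 at EPHA2. EPHA2 alone accounted for 21 of the 80 peaks, or 26.25%, and AXL followed with 11. GAS6 and FGFR1 had 8 peaks each, MST1R and FGFR3 had 7, TYRO3 6, MET 5 and MERTK 4. The median over the 10 genes was 7 peaks, against a median of 4 and quartiles of 2 and 8 over all protein-coding genes. Only 0.521% of protein-coding genes had more peaks than EPHA2, whereas 11.7% had more than AXL and 55.6% more than FGFR2.

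**Figure D1:**
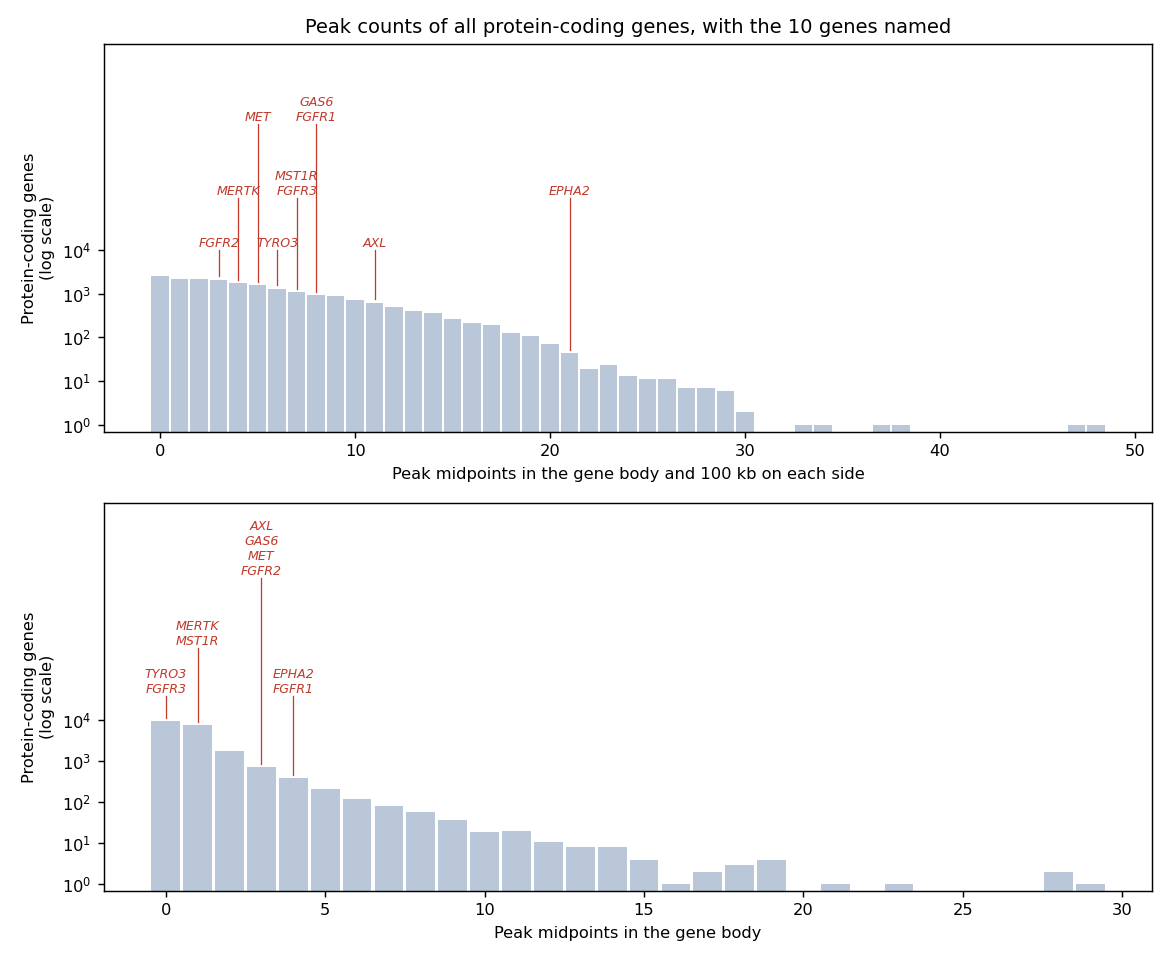
Bars give the number of protein-coding genes (log axis) with each count of ETS1 peak midpoints, in the gene body with 100 kb on each side (top) and in the gene body (bottom), and the 10 genes are named at their own counts. EPHA2 stands at 21 in the top panel, past the range of 3 to 11 of the other genes, and at 4 with FGFR1 in the bottom panel.

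The genes differ in length, from 15.6 kb for FGFR3 to 131 kb for MERTK. Peaks were therefore also counted per 100 kb of the gene body with its flanks. EPHA2 had 9.06 peaks per 100 kb, AXL 4.54, GAS6 3.29, FGFR3 3.25 and MST1R 3.23. FGFR1 had 2.98, TYRO3 2.66, MET 1.53, MERTK 1.21 and FGFR2 0.937. Against the median of 1.60 over all genes, MET, MERTK and FGFR2 were lower and the other 7 were higher, and EPHA2 was again first, with 0.888% of genes denser.

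Of the 80 peaks, 22 were inside a gene body and 58 in the flanks. 8 of the 10 genes had a peak in the body, and 53.4% of all protein-coding genes did. EPHA2 and FGFR1 had 4 each, AXL, GAS6, MET and FGFR2 had 3, and MERTK and MST1R had 1. TYRO3 and FGFR3 had none. The members' median of 3 compares with 1 over all genes, and 4.80% of genes had more than 3. These body counts take no account of length. The median body was 43036 bp for the 10 genes and 27219 bp for all protein-coding genes.

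**Figure D2:**
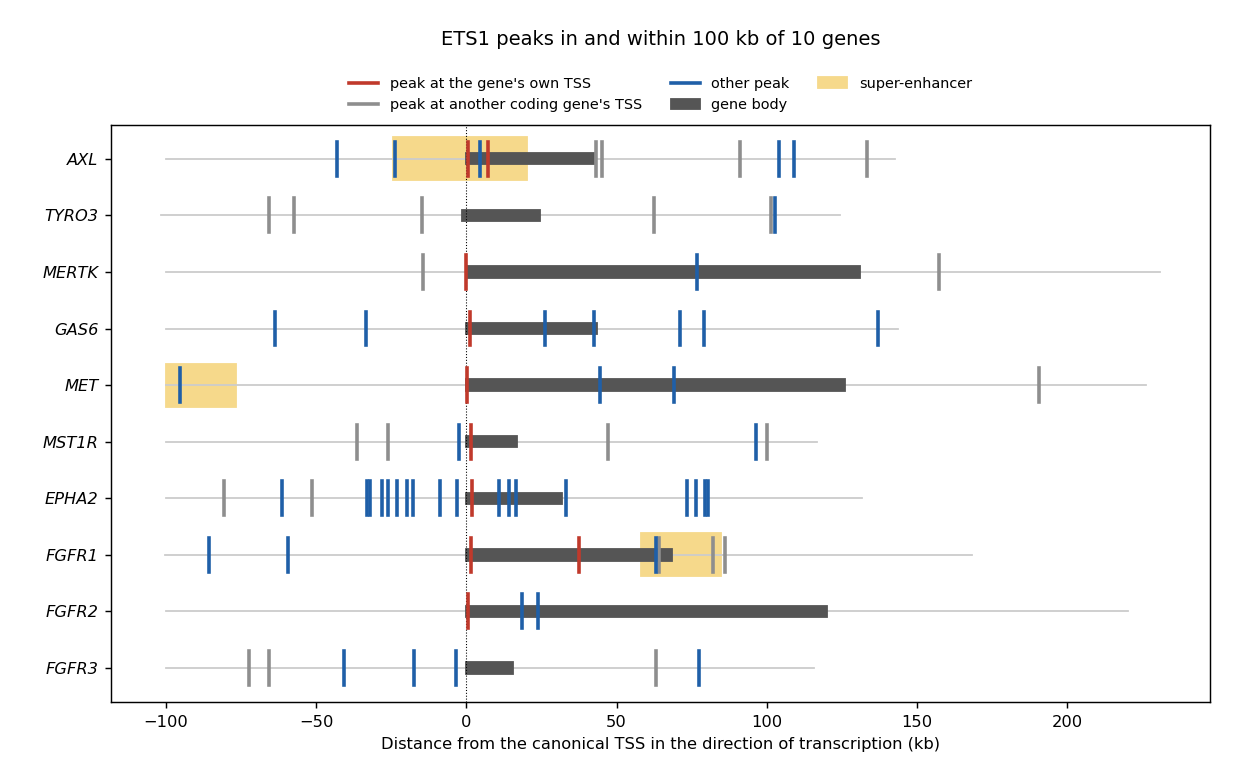
Each row is 1 gene with 100 kb on each side, drawn in the direction of transcription with the canonical TSS at 0 (kb), and each vertical line is the midpoint of an ETS1 peak. Peaks at EPHA2 crowd around and upstream of its TSS, TYRO3 has 5 of its 6 peaks at the TSS of other genes, and super-enhancers (shaded) reach the bodies of AXL and FGFR1 but only the flank of MET.

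At the start sites the peaks separated the genes into those with a peak over the TSS and those without. A peak covered the canonical TSS of 8 of the 10 genes, and of 51.5% of all protein-coding genes. TYRO3 and FGFR3 were the exceptions. The promoter limit of the study was 500 bp from a TSS. Applied here to peak midpoints and any TSS of the gene, it was met by 5 genes (AXL, MERTK, MET, FGFR1 and FGFR2). Over all genes it was met by 53.1%, slightly more than had the canonical TSS covered. The measures part because the peaks of GAS6, MST1R and EPHA2 are wide and extend mainly into the gene, so that their midpoints lie 1104, 1647 and 1763 bp past the canonical TSS. FGFR1 met the limit at other start sites than the canonical one. Its peak over the canonical TSS has the midpoint 1490 bp inside the gene and at -450 bp from another FGFR1 TSS, and a peak in intron 2 also met the limit.

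**Figure D3:**
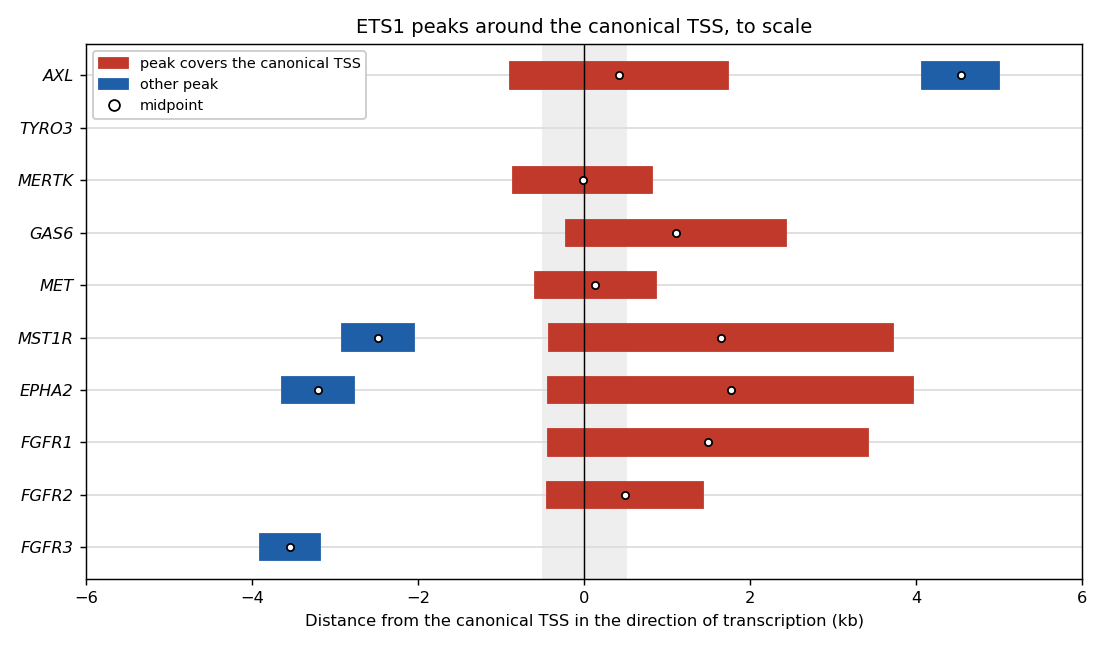
Horizontal bars are ETS1 peaks within 6 kb of the canonical TSS of each gene, to scale in kb in the direction of transcription, with circles at the midpoints and the range of 500 bp on each side in grey. The bars of MST1R, EPHA2 and FGFR1 start just before the TSS and run more than 3 kb into the gene, and TYRO3 and FGFR3 have no bar at the TSS.

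Among the TAM receptors AXL had the most peaks. The AXL gene lies at chr19:41725128-41767671 on the plus strand. Its TSS peak, at positions 41724236 to 41726863, was 2628 bp wide and covered 4 of the 5 annotated start sites of AXL. The 2 other body peaks, 929 and 1315 bp wide, both lay in intron 4. The wider of these, at 41731598 to 41732912, had its midpoint at -405 bp from the TSS of a shorter AXL transcript, and part of its sequence, with the cores in capitals, is printed above. Thus AXL had peaks at both its canonical start and a start site inside the gene.

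In the flanks of AXL, 6 of the 8 peaks were downstream. Of these 4 lay at the TSS of other genes, 2 at HNRNPUL1, 1 at CCDC97 and 1 at TGFB1, which encodes the cytokine transforming growth factor beta 1. The TGFB1 peak, 41856553 to 41860364, was the widest near AXL at 3812 bp. Each of the 11 peaks of AXL had AGGAAA or AGGAAG in the central 600 bp.

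MERTK, at chr2:112656184-112787138 on the plus strand, had a peak centred on its start, with the midpoint 20 bp before the canonical TSS and a width of 1667 bp. The peak covered 3 of the 5 MERTK start sites. The only other peak in its 131 kb body, 112732607 to 112733150, was 544 bp wide with its midpoint in exon 7, and held 5 ETS cores in 600 bp. The remaining peaks were at the TSS of ANAPC1 and of TMEM87B. MERTK had fewer peaks per 100 kb than 59.5% of genes.

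TYRO3, at chr15:41849873-41875787 on the plus strand, had no peak in its body or at any of its 9 start sites. The nearest peak, 41836090 to 41837165, was 14783 bp before the canonical TSS and lay at the TSS of RPAP1. Of its 6 peaks, 5 were at the start sites of RPAP1, ITPKA or MGA, and only 2 of the 6 held AGGAAA or AGGAAG in 600 bp. The TAM receptors thus split, with the start sites of AXL and MERTK under peaks and that of TYRO3 outside them. In the first 13485 entries of the list, the canonical TSS of none of the 3 was covered.

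GAS6, the ligand shared by the TAM receptors, lies at chr13:114523522-114567049 on the minus strand. Its TSS peak, 114564624 to 114567266, was 2643 bp wide and covered 2 of the 5 start sites. Body peaks of 1306 and 1790 bp lay in introns 6 and 14. None of the 8 peaks of GAS6 was at the TSS of another coding gene, in contrast to TYRO3. The central 600 bp of the TSS peak had no AGGAAA or AGGAAG, while the whole peak had 1.

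MET and MST1R, the receptors of HGF and MST1, both had peaks at their start. MET, at chr7:116312250-116438431 on the plus strand, had a peak at 116311651 to 116313118, 1468 bp wide, with its midpoint 134 bp past the canonical TSS, in exon 1. The sequence before the TSS is printed above. A peak of 438 bp in intron 2 (116356688 to 116357125) had 5 cores in the 600 bp around its midpoint, 3 of them inside the peak. A peak of 921 bp in intron 5 had 2 in 600 bp. All 5 peaks of MET held AGGAAA or AGGAAG, and 4 of the 5 held the AP-1 motif TGANTCA, in the central 600 bp.

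MST1R, at chr3:49924435-49941306 on the minus strand, had the second widest peak of the 10 genes. This peak, 49937582 to 49941736, was 4155 bp wide, and only 0.645% of nuclear peaks were wider. It covered 3 of the 8 start sites of MST1R and was the single peak in the gene body. Its central 600 bp lacked AGGAAA and AGGAAG, but the whole peak held 11. A further peak of 879 bp had its midpoint at -2485 bp from the canonical TSS, and 4 of the other 5 peaks were at the TSS of INKA1, TRAIP, MON1A or RBM6. In none of the 7 peaks did the central 600 bp contain TGANTCA.

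EPHA2 had the most ETS1 peaks in the body with its flanks, both among the 10 genes and among the 58 receptor tyrosine kinases compared. The gene spans chr1:16450832-16482564 on the minus strand. Of its 21 peaks, 4 were in the body, 12 upstream and 5 downstream. The TSS peak, 16478603 to 16482999, was the widest of the 80 at 4397 bp, with 0.490% of nuclear peaks wider, and held 18 ETS cores over its whole length. It stood at position 287 of the deposited list. The 3 other body peaks, of 734, 1877 and 3646 bp, were all in intron 3, and each held 4 cores in the central 600 bp. Only 2 of the 21 peaks lay at the TSS of another coding gene, ARHGEF19 and CPLANE2.

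The peaks of EPHA2 were closely spaced. Within 50 kb there were 13 midpoints, 4 in the gene body and 9 upstream, and no stretch of 50 kb in the whole list held more. A stretch starting at a peak held a median of 2 midpoints, and 13 were reached from 4 of the 26961 nuclear peaks, the one at EPHA2 and 3 overlapping stretches at ANO1 on chromosome 11. The 13 peaks spanned 16465016 to 16516067, and 21.4 kb of these 51.1 kb, or 41.9%, was under a peak. Their widths ran from 633 to 4397 bp with a median of 1217 bp, and 3 of the gaps between neighbours were shorter than 1 kb. AGGAAA or AGGAAG was in the central 600 bp of 12 of the 13, TGANTCA in 4 and CCGGAA in none, and none was at the TSS of another coding gene. When peaks within 1 kb of each other were joined, 10 remained in 50 kb, again the most in the genome. In the first 13485 entries of the list EPHA2 had 6 in 50 kb, fewer than the genome maximum of 9. In stretches of 25 kb EPHA2 had 8 midpoints, against a genome maximum of 9, and in stretches of 100 kb it had 16, against 22. The other 9 genes had between 2 and 5 midpoints in 50 kb. The stretch was described after the peaks had been seen.

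The fibroblast growth factor receptors differed from each other. FGFR1, on the minus strand of chromosome 8 (38257733 to 38326352), had 4 body peaks. Its TSS peak, 38322733 to 38326593, was 3861 bp wide and covered 24 of the 47 annotated start sites of FGFR1, and 0.920% of nuclear peaks were wider. A peak of 852 bp in intron 2 had its midpoint at -317 bp from the start of a short FGFR1 transcript. The remaining body peaks, 1043 and 285 bp wide, were beyond the end of the canonical transcript, and the first of them was at the TSS of the neighbouring gene LETM2. The peak of 285 bp was the narrowest of the 80. The 600 bp around its midpoint held 7 cores, 4 of them inside the peak.

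FGFR2, at chr10:123237846-123357972 on the minus strand, had 3 peaks, all in its body, and none in the flanks. None of the 3 is among the first 13485 entries of the list, where FGFR2 had 0 peaks. The TSS peak, 123356532 to 123358404, was 1873 bp wide and covered 11 of the 36 start sites. Peaks of 346 and 518 bp lay in intron 2. FGFR2 had few peaks within 100 kb but 11 in the domain given to it by GREAT, the tool of the study for assigning peaks to genes, which extends a gene up to 1 Mb towards its neighbours. For EPHA2 the domain held 17 peaks, for GAS6 11, for FGFR1 6, and for AXL, MET and FGFR3 4. MERTK and MST1R had 2 and TYRO3 1, and the median over all genes was 1.

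FGFR3, at chr4:1795020-1810599 on the plus strand, had no peak in its body and none over its 8 start sites. The nearest, 1791111 to 1791836, was 726 bp wide with its midpoint 3547 bp before the canonical TSS. Peaks at the start sites of TACC3 (with TMEM129 at 1 of them) and LETM1 made up 3 of its 7. AGGAAA or AGGAAG was in the central 600 bp of 3 of the 7, a share that only TYRO3, with 2 of 6, undercut.

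Super-enhancers (SEs) are long stretches dense in H3K27Ac, a histone mark of active enhancers, and were called by the authors in SCC25 cells. An SE overlapped the body of 2 of the 10 genes, AXL and FGFR1, and of 6.66% of all protein-coding genes. With the flanks of 100 kb the count was 3, with MET added, beside 18.1% of all genes. The SE at AXL, rank 714, spans chr19:41700916-41745269 and covered 20.1 kb or 47.3% of the gene body, including the TSS, together with the neighbouring CYP2S1. It held 4 ETS1 peaks, the first at 41701162 to 41701864 and the last in intron 4 at 41731598 to 41732912, and the median over all the ranked SEs was also 4. The SE at FGFR1, rank 610, is 26.8 kb long, covered 15.2% of the gene body at its 3′ end and held 3 peaks, 38243427 to 38244922, 38261430 to 38262472 and 38262712 to 38262996, and 2 of these were at the TSS of LETM2. It therefore reached FGFR1 at the end that it shares with LETM2 and not at the FGFR1 start. The SE peaks inside the FGFR1 body lay beyond the end of the canonical transcript.

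The SE near MET, rank 12, is 339 kb long and carries TES, CAV2 and CAV1, the last of which encodes caveolin-1. It ended 76.6 kb before the MET body, and 1 of its 5 peaks, 116216801 to 116217363, was within the 100 kb flank of MET. EPHA2, with the most peaks, overlapped no SE. Over all 80 peaks 8 were in an SE, 10% (5.15 to 18.5), compared with 17.2% of all nuclear peaks, a share inside that interval.

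Some of the peaks lay at start sites of other genes. Of the 80 peaks, 24 lay within 500 bp of a TSS of another protein-coding gene, 30.0% (21.1 to 40.8), and 56 did not. Of the 24, 23 were in the flanks. The same share was not computed for the windows of other genes, so whether 30.0% is high was not tested. Without those 24, EPHA2 had 19 peaks, GAS6 8, AXL 7, FGFR1 5, MET and FGFR3 4, MST1R and FGFR2 3, MERTK 2 and TYRO3 1. EPHA2 and GAS6 then led the order, and TYRO3, which had 6 peaks in all, was last. In their position the 80 peaks were close to the rest of the list, with 42.5% (32.3 to 53.4) within 500 bp of any annotated TSS, against 43.3%, and 43.8% (33.4 to 54.7) more than 1500 bp away, against 48.2%.

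The peaks of the 10 genes had a median width of 1213 bp with quartiles of 839 and 1669 bp, and all nuclear peaks 969 bp with quartiles of 609 and 1462 bp. Peaks over 3 kb wide made up 6 of the 80, 7.5% (3.48 to 15.4), and 2.65% of all nuclear peaks, which is below that interval. Of these 6, 3 covered the canonical TSS of MST1R, EPHA2 or FGFR1, 1 was in intron 3 of EPHA2 and the others were at TGFB1 and ARHGEF19. Peaks of a locus are not independent of each other, so the interval understates the error, and no test was made.

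The motif content of the peaks was close to that of the whole list for 2 of the 3 motifs searched. AGGAAA or AGGAAG was in the central 600 bp of 64 of the 80 peaks, 80.0% (70.0 to 87.3), and of 79.2% of all nuclear peaks. By gene, all peaks of AXL, MERTK and MET had it, as did 18 of 21 at EPHA2, 7 of 8 at FGFR1, 6 of 7 at MST1R, 6 of 8 at GAS6 and 2 of 3 at FGFR2. TGANTCA, the motif of the AP-1 factors FOS and JUN, was in 25 of the 80, 31.2% (22.2 to 42.1), against 30.9%. It was found in 17 of the 35 peaks more than 1500 bp from any TSS, 48.6%, and in 5 of the 34 within 500 bp of one, 14.7%, a split that the whole list shows as 47.8% and 12.02%. EPHA2 had 7 peaks with TGANTCA, MET 4, AXL, GAS6, FGFR1 and FGFR3 3, and TYRO3 and MST1R 0.

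CCGGAA, the form of the ETS site common at promoters, was rarer. It was in the central 600 bp of 12 of the 80 peaks, 15% (8.79 to 24.4), and of 26.0% of all nuclear peaks, which is above the interval. AXL had 4 such peaks, TYRO3 and MST1R 3 and MERTK and FGFR3 1, and no peak of GAS6, MET, EPHA2, FGFR1 or FGFR2 had it in this window. Many of these peaks lay at the TSS of other coding genes. They included all those of MST1R (at INKA1, TRAIP and RBM6) and that of FGFR3 (at LETM1). Some of those of TYRO3 (at MGA) and AXL (at HNRNPUL1 and CCDC97) also did. None of those of TYRO3, MST1R and FGFR3 was in the gene body. EPHA2 made up 21 of the 80 peaks. Peaks of a locus are not independent, so the intervals for CCGGAA also understate the error. Within 500 bp of a TSS the share was 29.4% (16.8 to 46.2), against 40.3%, and farther than 1500 bp it was 1 of 35, 2.86% (0.506 to 14.5), against 14.3%. Over whole peaks rather than 600 bp, 38.8% of the members' peaks and 37.4% of all nuclear peaks held CCGGAA, and the gap seen in the central window was not there. That comparison is not matched for length, as the members' peaks were wider, with a median of 1213 bp against 969 bp. In 200 bp the shares were 6.25% (2.70 to 13.8) and 11.8%, the same direction as in 600 bp but with the second share inside the interval. All motifs were searched on both strands. AGGAAA and AGGAAG differ from CCGGAA in the base before GGAA, so the same GGAA cannot count for both, and a match describes the letters of a window and not a site of binding.

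The other receptor tyrosine kinases give the setting of these counts. Of 49 outside the 10 genes, 29 (59.2%) had a peak in the body, 16 a midpoint within 500 bp of a start site, and 12 (24.5%) a peak over the canonical TSS, and the bodies of 5 overlapped an SE. Of the 9 receptors among the 10 genes, all but TYRO3 and FGFR3 had the canonical TSS covered. EGFR and EPHB2 had 12 body peaks each and IGF1R 9, more than any of the 10 genes. These counts take no account of length. The bodies of EGFR, EPHB2 and IGF1R are 193, 211 and 316 kb long, against 31.7 kb for EPHA2 and at most 131 kb among the 10 genes. In the GREAT domains EPHB3 and IGF1R had 18 peaks each, and EGFR had 17, as did EPHA2. Among the 14 EPH receptors, 9 had a body peak and the canonical TSS was covered in 4, EPHA1, EPHA2, EPHA4 and EPHB3. EPHB2 and EPHB3 had 15 peaks in the window, the most of the EPH receptors after EPHA2, while EPHA5 and EPHA7 had 0. FGFR4 had 3 peaks in the window, 1 of them in its body, and its canonical TSS was covered, as in FGFR1 and FGFR2. The 10 genes and these lists were chosen with earlier results of the same peaks known, so the counts describe them and are not a test.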

How the data were processed

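The authors performed ETS1 ChIP-Seq on 3 samples of SCC25 cells. Reads were mapped to hg19 with Bowtie 1.1.1, samples were merged with SAMtools 1.3, and peaks were called with MACS2 against a merged input and filtered by IDR across samples, pseudo-replicates and the pool. The values the authors deposited are positions only, 0-based starts and ends of 26970 pooled consensus peaks, with no score, unit of signal or depth per sample. SE coordinates and ranks were the authors' ROSE calls.

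Starts were converted to count from 1. Peaks were assigned by midpoint to GENCODE 44 genes on GRCh37, with GREAT's default domains (5 kb upstream, 1 kb downstream, extended up to 1 Mb) coded from its description. The motifs AGGAAA or AGGAAG, the promoter form CCGGAA and the AP-1 motif TGANTCA were searched on both strands in 600 bp around midpoints, with 200 bp and the whole peak as alternatives. Counting was tested on simulated peaks. Python 3.11.15, pandas 2.3.3, numpy 2.4.6, scipy 1.17.1, pysam 0.24.0, samtools 1.23.1 and matplotlib 3.10.9 were used. No test between samples was possible, and shares have 95% Wilson intervals.

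All 10 genes were named. Coordinates were given for each gene's peak nearest the canonical TSS, its widest body peak and its peaks in an SE over the body (the first and last where there were more than 3). In the other lists, the 3 genes with most body peaks and close relatives were named. Other peaks and genes were named after their values were seen. The 10 genes and the lists were chosen with earlier results of these data known. Knockdown data and typical enhancers were not analysed here.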

Additional observations from a re-analysis of the deposited data

How the results depend on the processing

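The list is a pool with no heights, so the precision of a peak at any single gene is unknown. The sources do not say what the order of the list stands for, and its first 13485 entries served as a smaller list. There the 10 genes had 42 peaks instead of 80, 3 had a midpoint within 500 bp of a TSS, 4 (MET, MST1R, EPHA2 and FGFR1) had the canonical TSS covered, 4 instead of 7 peaks lay in SEs over the bodies, and the densest 50 kb at EPHA2 held 6 midpoints, against a genome maximum of 9. The count of genes with a promoter peak was 8 with a limit of 1500 bp and 8 when a peak had only to cover a TSS, instead of 5. The share of peaks with an ETS core was 43.75% in 200 bp, 93.75% in the whole peak and 15% for CCGGAA, instead of 80%. The other 16 of 26 alternatives changed the summary values by at most 1.5 times. Counts per gene changed by more than that in 11 of 40 alternatives. In the first 13485 entries these were TYRO3 (6 to 2 peaks), GAS6 (8 to 5), MET (5 to 2), MST1R (7 to 4), EPHA2 (21 to 10), FGFR1 (8 to 4), FGFR2 (3 to 0) and FGFR3 (7 to 4), and with flanks of 50 kb TYRO3 (2), MET (3) and FGFR3 (4). The peak total was 59 with flanks of 50 kb, 81 by any overlap and 73 with peaks within 1 kb joined. The measures of a covered canonical TSS, of the 50 kb stretch and of widths, with their alternatives, were chosen after seeing the data. No paired analysis was possible because the deposited list pools the 3 samples, and for the same reason no sample could be left out.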

Other observations

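The partners of these receptors differed in how often their start sites lay under a peak. A set of 21 transducers and regulators of receptor kinase signals included the adaptors GRB2 and SHC1 and the phosphatase PTPN11. Of the 21, 18 (85.7%) had the canonical TSS covered and 19 had a body peak, with SRC at 6 and SHC1, LRIG1 and GRB10 at 3. The bodies of 3 of them, SHC1, CBL and SRC, overlapped an SE. Of 23 ligands other than GAS6, 4 (17.4%) had the canonical TSS covered and 6 had a body peak, with EFNA5 at 4 and EFNA3 and FGF1 at 3. HGF, the ligand of MET, had 0 peaks in its body or within 100 kb, and MST1, the ligand of MST1R, had 5 in the window and 0 in its body. PROS1, also a ligand of some TAM receptors, had a peak midpoint within 500 bp of a start site. Its canonical TSS was not covered, and it had 0 peaks in its body and 0 in its GREAT domain. EFNA1, a ligand of EPHA2, was the only 1 of the 24 ligands whose body overlapped an SE.

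Of 7 genes that activate HGF or MST1 or inhibit that activation, 5 had a body peak and 4 the canonical TSS covered. ST14, which encodes the protease matriptase, had 4 body peaks, the inhibitor SPINT2 had 3 and PLAU, which encodes urokinase, had 2. HGFAC and HPN had 0. As for the receptors, 51.5% of all protein-coding genes had the canonical TSS covered. These lists were put together with earlier results of the same peaks known, and their differences were not tested.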
